A study of Mus musculus with 15 samples.

Results

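Antigen presentation by MHC class I was followed through 10 mouse genes in MH-S cells, an SV40-transformed alveolar macrophage line, after exposure to microrods or to polarizing stimuli. The genes were taken by symbol from the count table, in which each matched 1 of 78317 Ensembl identifiers, and the rule uses no measured value. They encode the class I heavy chains *H2-K1* and *H2-D1*, the light chain *B2m*, the peptide transporter subunits *Tap1* and *Tap2*, the loading chaperone tapasin (*Tapbp*), the inducible catalytic proteasome subunits *Psmb8*, *Psmb9* and *Psmb10*, and *Nlrc5*, a transcriptional coactivator of class I genes. All 10 passed the filter on low counts in both fits.

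Bulk RNA of 15 wells was sequenced, with 3 wells in each of 5 groups, and every well came from 1 passage, which leaves differences between passages unmeasured. M0 cells received medium alone. M1 cells received LPS at 1 µg/mL together with IFN-γ at 20 ng/mL, and M2 cells received IL-4 at 20 ng/mL. The CaP group received calcium phosphate microrods (CaP-Alg-Prot/CMC (3DL)) and the SiO2 group received silica microrods (SiO2-Alg-Prot/CMC (3DL)), each at 0.1 mg/mL and from 3 separately prepared particle batches. Exposure lasted 24 h in every group. Dosing was by mass, and the number of rods per cell was not matched between the materials. MH-S cells come from BALB/c mice, whose class I alleles (haplotype H-2d) differ from those of the C57BL/6 reference genome (H-2b), so the level of the polymorphic heavy chain rows can depend on how well the reads match the reference.

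The class I pathway shows peptides from the cytosol on the cell surface. The proteasome cuts proteins into peptides, the TAP transporter moves them into the endoplasmic reticulum, and tapasin and other chaperones load them on a heavy chain paired with β2-microglobulin. IFN-γ is a textbook inducer of the whole pathway: through JAK kinases and IRF1 it raises the heavy chains, TAP and NLRC5, and it replaces the constitutive catalytic subunits PSMB5, PSMB6 and PSMB7 by PSMB8, PSMB9 and PSMB10 to form the immunoproteasome. Alveolar macrophages carry class I and the immunoproteasome, as most cells of blood origin do.

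Total counts per library ranged from 8459643 to 68750050 (median 14879931). The macrophage markers *Cd68* (677 to 1322 CPM), *Lyz2* (322 to 2105 CPM), *Csf1r* (61.0 to 203 CPM) and *Adgre1* (27.4 to 322 CPM) were present in every library, where CPM is the count scaled to the TMM-adjusted library size, in the usual unit of expression tables. So were *Itgam* (13.9 to 42.6 CPM), *Fcgr1* (10.8 to 49.4 CPM) and, at a low level, *Itgax* (1.57 to 4.93 CPM). *Mertk* did not exceed 0.501 CPM and had counts in 13 of 15 libraries. The alveolar markers *Siglecf* and *Marco* did not exceed 0.478 and 2.82 CPM in any library, and *Chil3* had counts in 2 of 15 libraries. The summed level of the 11 macrophage markers was 2557 to 3514 CPM in M0, 3192 to 3324 in M1, 1373 to 2101 in M2, 2612 to 2985 in CaP and 2758 to 3112 in SiO2, while 5 epithelial, 3 fibroblast and 4 T and B cell markers together stayed at or below 0.136, 0.172 and 0.43 CPM. The summed endothelial markers *Pecam1* and *Cdh5* were at 0.116 to 0.781 CPM in M0, 1.26 to 1.38 in M1, 0.921 to 1.71 in M2, 0.349 to 0.738 in CaP and 0.227 to 0.685 in SiO2, and their part in the results was not tested. The M1 and M2 stimuli left marks: mean *Il1b* was 1.07 CPM in M0 and 411 in M1, and mean *Arg1* was 1550 CPM in M2 and at most 21.6 in the other groups. M1 cells received LPS and IFN-γ together, so *Il1b* does not show that IFN-γ by itself acted. In bulk RNA, fewer cells with a transcript and less of it per cell cannot be told apart.

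Stretches upstream of annotated start sites were available for 8 of the 10 genes (RefSeq, build GRCm38.p6, the first of 2 entries for *H2-K1*) but not for *Tap2* and *Nlrc5*. They are shown for the heavy chains, for *B2m* and for the *Tap1* and *Psmb9* pair because these genes are commonly described as sharing interferon control, and because *Tap1* and *Psmb9*, which share a stretch, are compared further on. Capitals mark matches, on either strand, to 3 motifs: AANNGAAA (part of the interferon-stimulated response element), GGNNTTNCC (part of the κB site) and CCAAT. Each heavy chain and *B2m* sequence holds the 250 bases before the start of its gene, 5′ to 3′ on the strand of the gene.
H2-K1 (chr17:34000348-34000597, minus strand): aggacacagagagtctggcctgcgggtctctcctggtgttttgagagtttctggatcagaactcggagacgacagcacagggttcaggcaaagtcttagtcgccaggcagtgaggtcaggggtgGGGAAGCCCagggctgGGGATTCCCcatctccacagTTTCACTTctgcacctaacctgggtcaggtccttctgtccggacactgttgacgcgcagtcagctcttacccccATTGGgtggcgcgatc
H2-D1 (chr17:35262844-35263093, plus strand): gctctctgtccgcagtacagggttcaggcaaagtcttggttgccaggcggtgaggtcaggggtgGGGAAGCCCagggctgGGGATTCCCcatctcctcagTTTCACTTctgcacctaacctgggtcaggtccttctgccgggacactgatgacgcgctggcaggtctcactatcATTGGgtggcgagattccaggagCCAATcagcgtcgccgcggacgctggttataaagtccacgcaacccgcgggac
B2m (chr2:122147437-122147686, plus strand): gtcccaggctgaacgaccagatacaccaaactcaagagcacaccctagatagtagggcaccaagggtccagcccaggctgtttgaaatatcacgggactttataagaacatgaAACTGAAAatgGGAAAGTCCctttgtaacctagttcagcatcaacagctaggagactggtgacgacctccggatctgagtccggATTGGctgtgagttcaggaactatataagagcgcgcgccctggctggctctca
Tap1 and Psmb9 (chr17:34187331-34187555, plus strand): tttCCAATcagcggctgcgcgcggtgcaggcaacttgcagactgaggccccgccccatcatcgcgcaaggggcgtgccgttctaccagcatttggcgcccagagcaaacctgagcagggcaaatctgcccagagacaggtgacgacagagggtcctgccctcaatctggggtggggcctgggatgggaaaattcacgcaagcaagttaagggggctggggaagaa

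The heavy chain sequences were 89.5% identical over the 190 bases that align, and both held 2 κB matches followed by a reverse match to the response element motif. The κB motif occurred in 13.5% of 32851 windows of 250 bases before annotated starts, the response element motif in 21.3% and CCAAT in 33.8%. *B2m* held 1 match to each of the 3 motifs. *Tap1* and *Psmb9* lie head to head, and the 225 bases that lie before both starts held 1 CCAAT match. *Tapbp* (not printed) held 2 CCAAT matches, and *Psmb8* and *Psmb10* none of the 3 motifs. A match says only that the letters are present.

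Levels within M0 spanned the pathway widely. Per kilobase of the longest annotated transcript, the mean M0 level was highest for *B2m* (1234 CPM per kilobase), followed by *H2-D1* (178), *H2-K1* (134), *Psmb10* (121), *Psmb8* (113.7) and *Tapbp* (42.8). *Psmb9* (12.7), *Tap1* (2.07), *Tap2* (1.84) and *Nlrc5* (1.10) were lowest. The transporter subunits were measured at far fewer counts than the heavy chains, with 51 to 719 per library for *Tap1* and 43 to 708 for *Tap2*. Where the main transcript is shorter than the longest, as can be the case for *Psmb9*, the value per kilobase is too low.

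The spread of the 5 group means differed between the 10 genes. The highest group mean exceeded the lowest by 1.19-fold for *H2-K1* and by 2.31-fold for *Nlrc5*, with the others in between. Ordered by mean CPM, the libraries of neighbouring groups overlapped in 38 of 40 neighbour pairs. Neighbours are by construction close in mean, so their overlap is likely in advance, and its share over all genes was not taken. Groups further apart can be without overlap, as M1 and M2 were for *Psmb9*, *Psmb10* and *Nlrc5*, beside 29.4% of all genes. The exceptions among the neighbour pairs were *B2m*, with CaP above SiO2, and *Psmb8*, with M1 above SiO2.

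**Figure D1:**
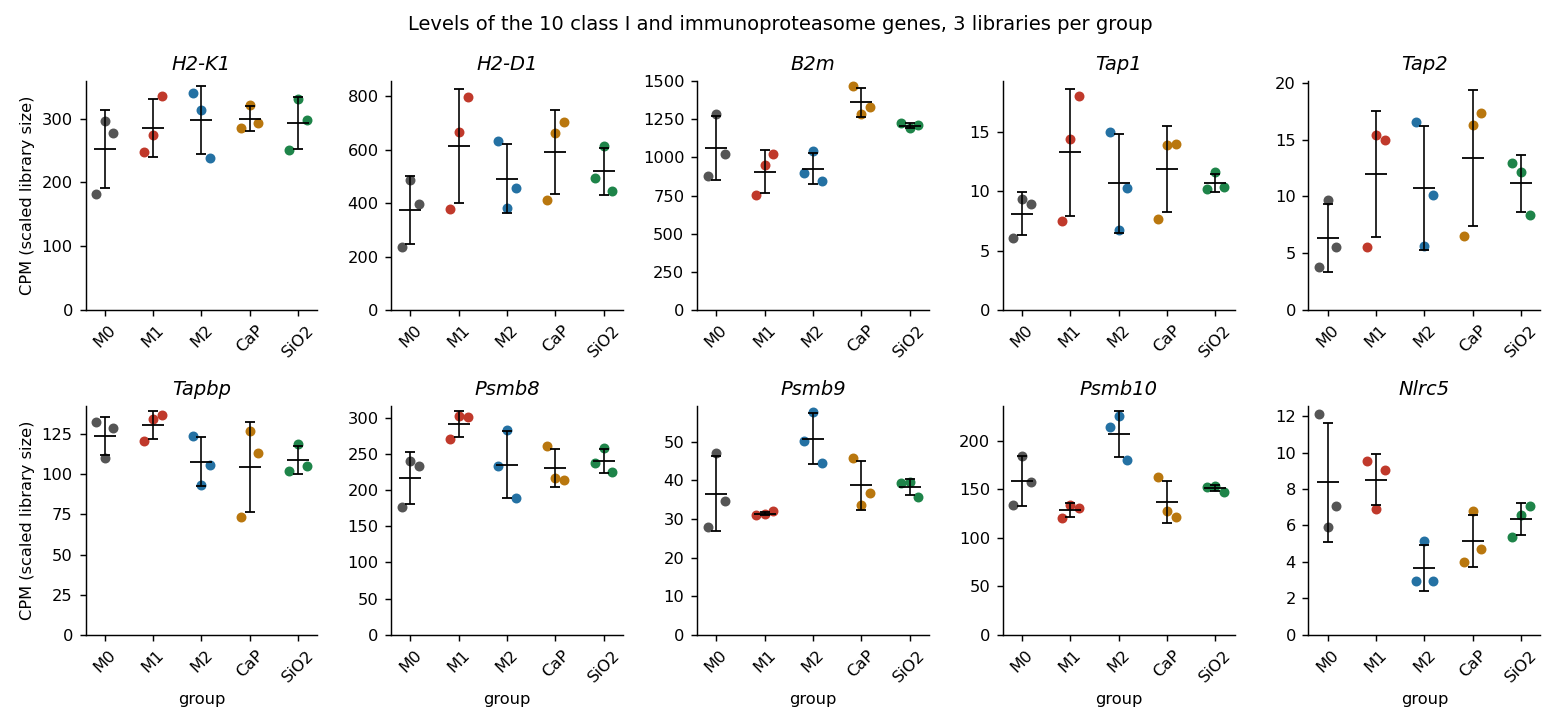
Levels of the 10 genes in CPM (y axis, linear from 0) in the 5 groups (x axis). Coloured points are libraries and black bars are the mean ± SD (n = 3). In M2, *Nlrc5* lies between 2.93 and 5.13 CPM, below all M0 libraries, and *H2-D1*, *Tap1* and *Tap2* spread widely within M0, M1, M2 and CaP.

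The M1 stimulus, which contains IFN-γ, raised none of the 10 genes past the threshold used throughout, an adjusted p-value below 0.05 in edgeR's quasi-likelihood test with an absolute log2 fold change above 0.5. The count was 0 of 10, while 14.1% of the 16654 genes tested passed in M1 against M0. At an unadjusted p below 0.05 there were 2 (27.7% of all genes), *H2-D1* and *Psmb8*. DESeq2 called 0, and its share over all genes is not given. The median log2 fold change of the 10 was 0.13, beside -0.01 for all genes. Same-numbered M0 and M1 wells deviated from their group means together (r from 0.21 to 0.29 over all genes). In a fit of these 6 libraries alone with the replicate number as a block, 1 of 10 was called, *H2-D1*, beside 2593 genes in all. Without the block the count was 0 of 10, beside 1943 genes in all.

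*H2-D1* was the heavy chain with the larger M1 difference. Its level was 237, 486 and 397 CPM in M0 replicates 1 to 3 and 378, 665 and 796 CPM in the M1 replicates. M1 replicate 1 lay inside the M0 range and the other M1 libraries above it. The log2 fold change was 0.72 ± 0.32 (SE), with an adjusted p of 0.159 in edgeR. Each M1 library was above the M0 library of the same number, an order whose share over all genes is not given. *H2-D1* was called in the blocked fit of the M0 and M1 libraries (0.66, adjusted p = 0.0332, edgeR) and without a filter on low counts (0.71, adjusted p = 0.0145, edgeR), and the adjusted p ranged from 0.0145 to 0.492 over its 16 alternatives.

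The transporter subunits behaved in the same way. *Tap1* was at 6.06, 9.37 and 8.92 CPM in M0 and at 7.48, 14.4 and 17.98 CPM in M1, a log2 fold change of 0.73 ± 0.35 (adjusted p = 0.197, edgeR). *Tap2* was at 3.79, 9.69 and 5.56 CPM in M0 and at 5.59, 15.4 and 14.97 CPM in M1, a log2 fold change of 0.94 ± 0.51 (adjusted p = 0.249, edgeR). In each case M1 replicate 1 was inside the M0 range while the other M1 libraries were above all M0 libraries. For both genes each M1 library was above the M0 library of the same number. The share of all genes with that order is not given, and what a number shares is not known. The blocked fit of the M0 and M1 libraries called neither (0.59, adjusted p = 0.111 and 0.82, adjusted p = 0.0651, edgeR). The intervals reached up to 2.82-fold for *Tap1* and 4.09-fold for *Tap2*, so a sizeable rise is within what these libraries allow.

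*Psmb8*, which replaces PSMB5, was the single member whose M1 and M0 libraries did not overlap. It was at 176, 241 and 234 CPM in M0 and at 271, 303 and 302 CPM in M1. The log2 fold change was 0.43 ± 0.17 (adjusted p = 0.115, edgeR), with an interval from 1.04 to 1.74-fold. Among all genes tested, 20.2% were without overlap and higher in M1.

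The remaining members differed from M0 by at most 0.30 on the log2 scale in either direction. The log2 fold change was 0.18 for *H2-K1*, 0.08 for *Tapbp* and -0.02 for *Nlrc5*, and it was -0.23 for *B2m*, -0.22 for *Psmb9* and -0.30 for *Psmb10*. The upper bounds of the 95% intervals were 1.09-fold for *B2m*, 1.15-fold for *Psmb9* and 1.03-fold for *Psmb10*. For *H2-K1*, *Tapbp* and *Nlrc5* the upper bounds were 1.54, 1.40 and 1.55-fold.

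**Figure D2:**
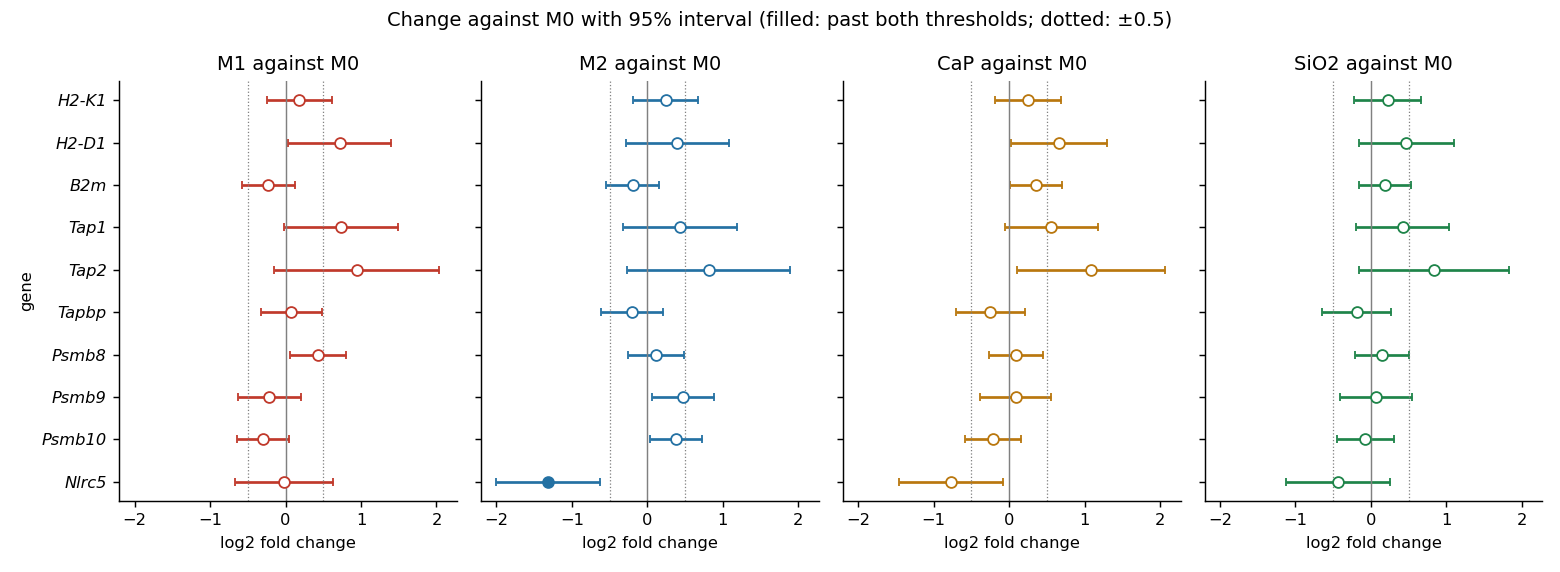
Log2 fold change against M0 (x axis) of the 10 genes (y axis) in M1, M2, CaP and SiO2, with 95% intervals from the edgeR fit. Filled points passed both thresholds, and dotted lines mark a change of 0.5 in either direction. *Nlrc5* in M2 is the single filled point.

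IL-4 lowered *Nlrc5* and left the other 9 members uncalled. The count in M2 against M0 was 1 of 10, while 4.13% of all genes tested were called. *Nlrc5* was at 12.1, 5.92 and 7.07 CPM in M0 and at 2.93, 5.13 and 2.98 CPM in M2. All M2 libraries were below all M0 libraries, as in 8.2% of all genes. The log2 fold change was -1.31 ± 0.32 (adjusted p = 0.0353, edgeR), an interval from 0.25 to 0.65 of the M0 level. These are counts of 39 to 459 per library, and the call was lost in 6 of 14 alternatives: the adjusted p was 0.207 without M0 replicate 1, 0.0534 without M0 replicate 3, 0.125 without M2 replicate 1 and 0.183 without M2 replicate 3, where the log2 fold change was -0.92, -1.40, -1.21 and -1.15, and it was 0.0771 with the replicate block and 0.0556 with edgeR's legacy quasi-likelihood.

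*Psmb9* and *Psmb10* pointed the other way under IL-4 without passing the threshold. *Psmb9* was at 27.9, 47.0 and 34.6 CPM in M0 and at 50.1, 57.8 and 44.6 CPM in M2 (log2 fold change 0.47 ± 0.19, adjusted p = 0.216, edgeR). *Psmb10* was at 134, 184 and 158 CPM in M0 and at 214, 226 and 180 CPM in M2 (0.38 ± 0.16, adjusted p = 0.227, edgeR). In both genes the lowest M2 library overlapped the highest M0 library. The median of the 10 log2 fold changes was 0.31, beside 0.07 for all genes, and an unadjusted p below 0.05 was reached by 3 members (17.2% of all genes).

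Set directly against each other, the polarized states differed in *Psmb9*, *Psmb10* and *Nlrc5*. In M1 against M2, 3 of 10 members were called, while 16.1% of all genes tested were, and the same 3 had an unadjusted p below 0.05 (29.8% of all genes). All 3 were without overlap between the groups, as were 29.4% of all genes. *Psmb10* was at 121, 134 and 131 CPM in M1, below all M2 libraries, with a log2 fold change of -0.68 ± 0.16 (adjusted p = 0.00925, edgeR). *Psmb9* was at 31.0, 31.2 and 32.0 CPM in M1, likewise below all M2 libraries, with -0.69 ± 0.19 (adjusted p = 0.0266, edgeR). *Nlrc5* was at 9.54, 6.90 and 9.04 CPM in M1, above all M2 libraries, with 1.29 ± 0.33 (adjusted p = 0.0153, edgeR). *Psmb10* kept its call when any 1 of the 6 libraries was left out, but an offset for GC content and transcript length ended it (adjusted p = 0.0703) and that of *Psmb9* (0.0575). *Psmb9* lost it without any M1 library and without M2 replicate 1 (adjusted p from 0.0597 to 0.0799), and *Nlrc5* without M1 replicate 1 (0.0557), M2 replicate 1 (0.0592) or M2 replicate 3 (0.0918).

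Microrods left all 10 genes uncalled against M0. In CaP against M0 the count was 0 of 10, beside 0.409% of 16621 genes, and in SiO2 against M0 it was 0 of 10, beside 0.0602%. With so few edgeR calls among all genes, a count of 0 among 10 is near the background. At an unadjusted p below 0.05 there were 4 members in CaP (18% of all genes) and 0 in SiO2 (9.27%). DESeq2 called 0 in either comparison, and its share over all genes is not given. The study, which used DESeq2 at the same thresholds, reported more genes in both comparisons than edgeR called here.

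The 4 members in CaP were *H2-D1*, *B2m*, *Tap2* and *Nlrc5*. *H2-D1* was at 413, 661 and 704 CPM in CaP (log2 fold change 0.67 ± 0.28, adjusted p = 0.259, edgeR) and *Tap2* at 6.50, 16.3 and 17.3 CPM (1.09 ± 0.44, adjusted p = 0.240, edgeR), where CaP replicate 1 lay inside the M0 range in both. *B2m*, at 877, 1287 and 1020 CPM in M0, was at 1465, 1284 and 1331 CPM in CaP (0.36 ± 0.15, adjusted p = 0.264, edgeR). The lowest CaP library was level with the highest M0 library. *Nlrc5* was at 4.02, 6.77 and 4.68 CPM in CaP (-0.77 ± 0.31, adjusted p = 0.237, edgeR), overlapping M0.

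In SiO2 cells these 4 members had log2 fold changes of smaller size, which their selection by p-value in CaP makes likely in advance. *B2m* was at 0.19 ± 0.15 (adjusted p = 0.774, edgeR) and *Nlrc5* at -0.43 ± 0.31 (adjusted p = 0.722, edgeR). *H2-D1* was at 494, 615 and 446 CPM (log2 fold change 0.47 ± 0.28, adjusted p = 0.663, edgeR) and *Tap2* at 13.0, 12.2 and 8.32 CPM (0.83 ± 0.44, adjusted p = 0.612, edgeR). *Tap1*, at 10.2, 11.6 and 10.3 CPM, was the member whose SiO2 libraries all exceeded the M0 libraries (0.42 ± 0.28, adjusted p = 0.702, edgeR), as 9.1% of all genes did. The upper interval bounds of the 10 genes ran from 1.197-fold to 3.55-fold in SiO2 and from 0.948-fold to 4.20-fold in CaP.

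Between the rod materials, CaP against SiO2 gave 0 of 10 called, beside 0.0241% of all genes, and 0 at an unadjusted p below 0.05 (1.87%) and with DESeq2. The log2 differences ran from -0.33 for *Nlrc5* to 0.25 for *Tap2*. *B2m* was higher in every CaP library than in any SiO2 library (1224, 1191 and 1211 CPM), as were 3.42% of all genes, by 0.17 on the log2 scale with an interval from -0.17 to 0.51.

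Against the polarized cells, CaP gave 1 call. *B2m* was at 753, 949 and 1020 CPM in M1 and higher in all CaP libraries (log2 fold change 0.58 ± 0.16, adjusted p = 0.0296, edgeR), 1 of 10 members beside 12.7% of all genes. Libraries were without overlap and higher in CaP for 18.4% of all genes, and 2 members, *B2m* and *Nlrc5*, had an unadjusted p below 0.05 (26.5%). The call of *B2m* was lost without M1 replicate 1 (0.47, adjusted p = 0.134), M1 replicate 2 (0.62, 0.0676), CaP replicate 1 (0.53, 0.0807) or CaP replicate 3 (0.60, 0.0798), and with the GC and length offset (0.43, 0.328). In SiO2 against M1, 0 of 10 were called, beside 10.5%, with *B2m* at 0.41 ± 0.16 (adjusted p = 0.139, edgeR). DESeq2 also called 0, and 1 member, *B2m*, had an unadjusted p below 0.05 (21.8% of all genes).

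In CaP against M2, 0 of 10 were called, beside 4.46% of all genes, with 2 at an unadjusted p below 0.05 (11.9%). These were *Psmb10* (-0.59 ± 0.16, adjusted p = 0.0503, edgeR) and *B2m* (0.55 ± 0.16, adjusted p = 0.0831, edgeR). DESeq2 called both, and its share over all genes is not given. *Psmb10* was also called without M2 replicate 3 or without CaP replicate 1. In SiO2 against M2, 0 of 10 were called by edgeR or DESeq2, beside 3.65%, with 3 at an unadjusted p below 0.05 (*B2m*, *Psmb10* and *Nlrc5*, beside 11.4% of all genes). Comparisons that share M0, M1 or M2 libraries are not independent of each other.

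Reads of near-identical heavy chains can be split between genes by the counting. Of the 50-base stretches of the longest transcript, 8.11% of *H2-K1* and 14.3% of *H2-D1* occurred in transcripts of another gene, against 35.8% for *H2-T22*, 32% for *H2-Q6* and 0% for *B2m*, *Psmb8*, *Psmb9*, *Psmb10* and *Nlrc5*. The counts of 17 class I heavy chain genes were therefore also summed before testing. The sum was 761 ± 208 CPM in M0, 1104 ± 286 in M1, 1030 ± 205 in M2, 1115 ± 172 in CaP and 987 ± 76.6 in SiO2 (SD, n = 3), and *H2-K1* and *H2-D1* made up 70.8% to 81.4% of it. The log2 fold change of the sum against M0 was 0.54 ± 0.24 in M1 (adjusted p = 0.154), 0.55 ± 0.21 in CaP (adjusted p = 0.214) and 0.38 ± 0.21 in SiO2 (adjusted p = 0.623, edgeR). None of the 3 was called.

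At the RNA level, each inducible subunit was also set against the constitutive subunit whose place it takes, as a ratio of counts within each library. Such a ratio does not depend on the scaling between libraries. Neither protein nor the make-up of proteasomes was measured, so the ratios do not tell whether immunoproteasomes formed. The *Psmb8* to *Psmb5* log2 ratio was -0.10 ± 0.23 in M0 and -0.33 ± 0.24 in M1 (SD, n = 3, exact two-sided permutation p = 0.3). *Psmb9* was far below *Psmb6*, with -5.24 ± 0.48 in M0 and -5.42 ± 0.26 in M1 (exact two-sided permutation p = 0.7). The *Psmb10* to *Psmb7* log2 ratio was 0.90, 0.57 and 0.45 in the M0 libraries and -0.24, -0.22 and -0.24 in the M1 libraries. That is a difference of -0.87 with no overlap, and the exact permutation p of 0.1 is the smallest that 3 against 3 can give. The difference stayed between -0.97 and -0.75 without any 1 of the 6 libraries. With all libraries none of the 3 ratios had a higher mean in M1 than in M0, though *Psmb9* to *Psmb6* was 0.10 higher without M0 replicate 2.

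In the *Psmb10* to *Psmb7* ratio the microrod groups lay on the side of M1. It was 0.26, -0.24 and -0.31 in CaP and 0.10, -0.04 and 0.16 in SiO2, all below the M0 libraries, and 0.81, 1.09 and 0.54 in M2. The differences from M0 were -0.74 for CaP and -0.57 for SiO2 (exact two-sided permutation p = 0.1 for each, the smallest possible) and 0.17 for M2 (p = 0.5 in the same exact test). Over the 12 differences of ratios from M0 (3 ratios in 4 groups), a Benjamini-Hochberg adjustment leaves none below 0.05, since no raw p is below 0.1. Of the parts of the ratio, *Psmb7* was at 104 ± 28.1 CPM in M0, 151 ± 7.36 in M1 and 145 ± 8.62 in CaP (log2 fold change 0.55 with adjusted p = 0.0605 and 0.49 with adjusted p = 0.248, edgeR), while *Psmb10* was at 159 ± 25.4, 129 ± 6.88 and 137 ± 22.1 CPM. In SiO2, *Psmb7* was at 144 ± 12.8 CPM and *Psmb10* at 151 ± 3.00 CPM (log2 fold change of *Psmb10* -0.07, adjusted p = 0.952, edgeR). The M0 libraries spread from 71.7 to 124 CPM in *Psmb7*.

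**Figure D3:**
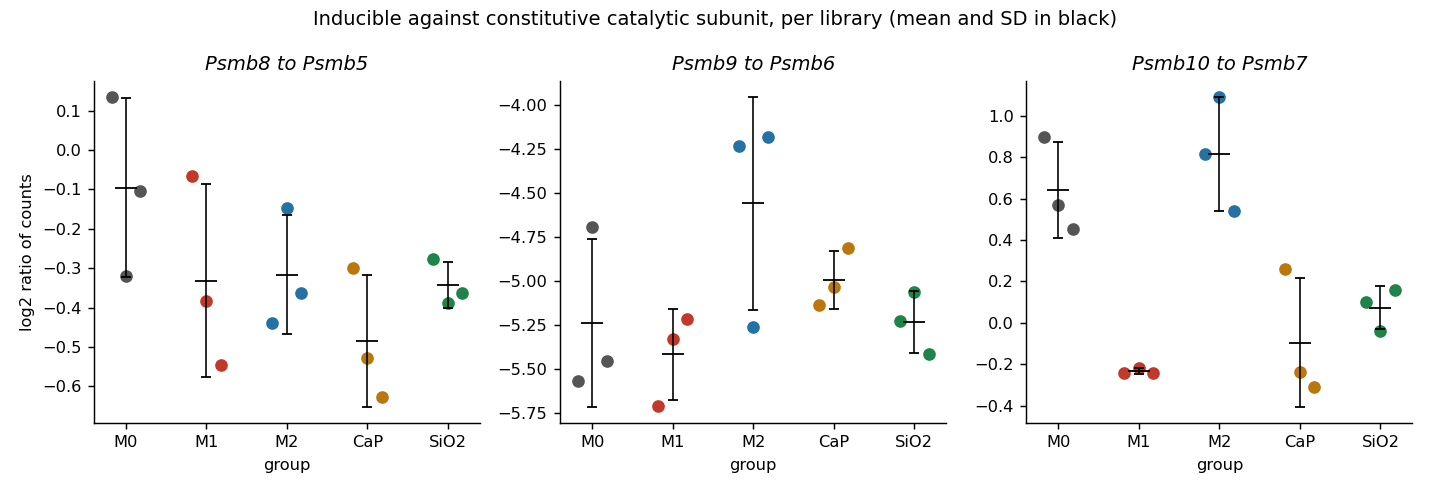
Log2 ratio of counts (y axis) of each inducible subunit to its constitutive counterpart in the 5 groups (x axis). Points are libraries, black bars the mean ± SD (n = 3), and each panel has its own range. *Psmb10* to *Psmb7* lies between -0.24 and -0.22 in M1 and between 0.45 and 0.90 in M0.

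Some members shared their deviations between replicates of a group. As deviations of log2 CPM from the group mean over 15 libraries, *H2-D1*, *Tap1* and *Tap2* moved together, with Pearson's r from 0.93 to 0.94 for the 3 pairs. *Psmb8*, *Psmb9* and *Psmb10* moved together as well, with r from 0.84 to 0.91, and *B2m* with them (0.77 to 0.81). The correlation of *Tap1* with *Psmb9* was -0.08, although both start from the stretch printed above. These coefficients describe 15 libraries that share the group means and the scaling, and the groupings were seen in the data.

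The first of these groupings varied with a measure of the base composition of the libraries. For each library, the median deviation of genes in the upper tertile of GC content minus that in the lower tertile was taken as its GC shift. It ranged from -0.42 to 0.28 on the log2 scale, and the lowest values were those of M2 replicate 2, M1 replicate 1, M0 replicate 1 and CaP replicate 1 (-0.42, -0.32, -0.20 and -0.13). The mean deviation of *H2-D1*, *Tap1* and *Tap2* in these libraries was -0.57, -0.77, -0.54 and -0.65, lower than in any other library. Across the 15 libraries its Pearson's r with the GC shift was 0.89 and Spearman's rho 0.86, and r was 0.85 without the 2 libraries farthest from the median shift. For *Psmb8*, *Psmb9* and *Psmb10* together r was 0.01. The GC content was 55.9% for *H2-D1*, 55.8% for *Tap1* and 56.9% for *Tap2*. *Tapbp* (57.1%) and *Psmb10* (56.5%) were as rich in GC, with r of 0.36 and 0.06. For *Nlrc5* (52.6%) r was -0.67. Over all 16654 genes, the median absolute r was 0.46, and 7.41% of genes had an r of 0.8 or more. A length shift was taken in the same way from transcript length. With it, r was 0.79 for *Tapbp*, 0.58 for *Nlrc5* and -0.44 for *Psmb10*, and from 0.21 to 0.29 for *H2-D1*, *Tap1* and *Tap2*. Whether base composition or transcript length is what moves these genes was not tested.

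The M1 count was also taken without these 4 libraries together, a choice made after the data were seen. *H2-D1* (0.68, adjusted p = 0.0368) and *Tap1* (0.77, adjusted p = 0.0331) were then called in M1 against M0. *Tap2* was not (0.91, adjusted p = 0.0730), which makes 2 of 10, with 3100 genes called in all. The libraries left out are those in which *H2-D1*, *Tap1* and *Tap2* were lowest relative to their group. Their removal narrows the spread of these genes within groups, which makes smaller p-values likely in advance. The 2 calls therefore cannot decide whether these genes rose in M1. With all 15 libraries and an offset for GC content and transcript length instead, the values were 0.44 for *H2-D1* (adjusted p = 0.126), 0.48 for *Tap1* (0.152) and 0.65 for *Tap2* (0.234), and the count was 0. In CaP against M0 the count was 0 either way, with *H2-D1* at 0.58 without the 4 libraries and 0.34 with the offset. All of these values are from edgeR.

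**Figure D4:**
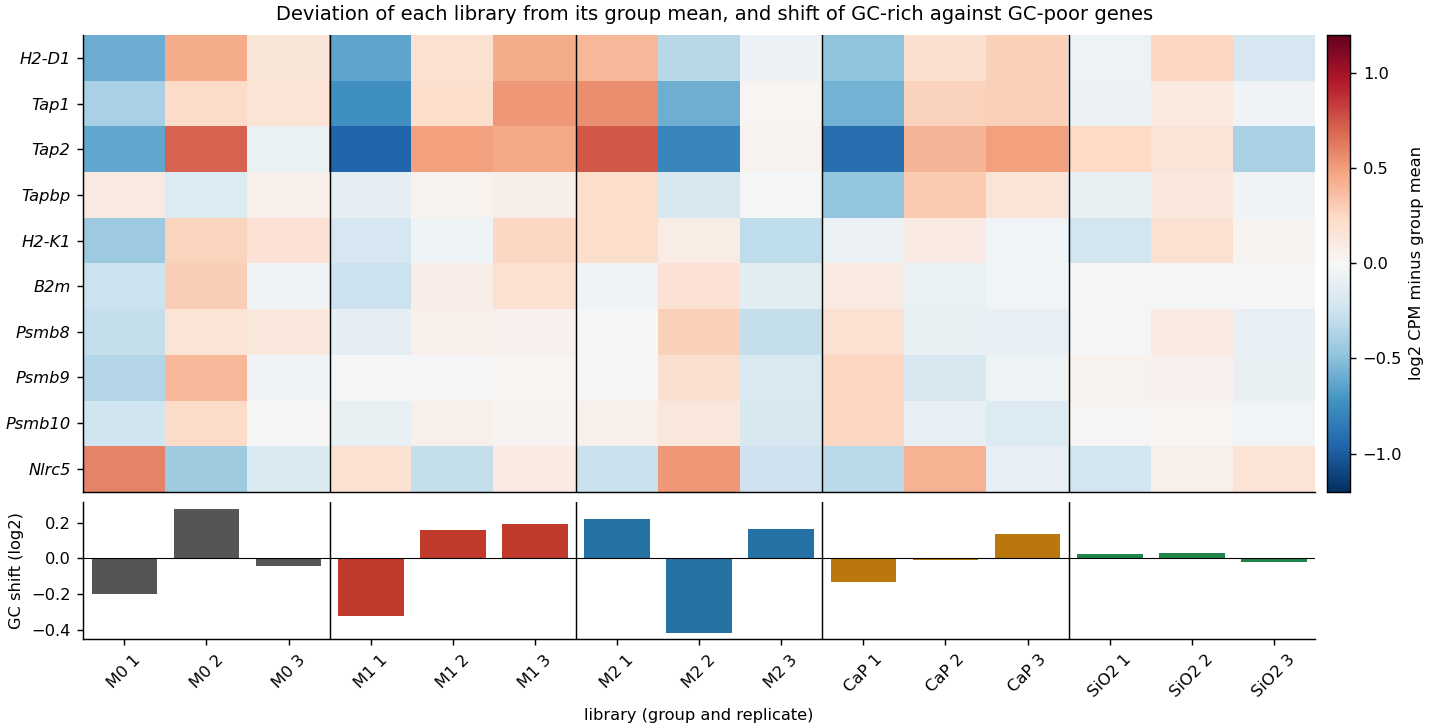
Top, deviation of log2 CPM from the group mean (colour) of the 10 genes (rows) in the 15 libraries (columns). Bottom, GC shift of each library (y axis, log2). *H2-D1*, *Tap1* and *Tap2* are low in M0 replicate 1, M1 replicate 1, M2 replicate 2 and CaP replicate 1, where the GC shift lies between -0.42 and -0.13.

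Elsewhere in the pathway, 10 of 61 listed genes tested (16.4%) were called in M1 against M0, near the 14.1% of all genes. Of 17 class I heavy chains, 15 were tested and 2 rose (13.3%), both non-classical. *H2-T24* went from 14.8 ± 3.13 CPM in M0 to 39.1 ± 2.47 in M1 (log2 fold change 1.39 ± 0.30, adjusted p = 0.00753), and *H2-T23*, which encodes Qa-1, from 17.1 ± 4.57 to 35.5 ± 5.54 CPM (1.05 ± 0.29, adjusted p = 0.0261, edgeR). *Mr1*, which presents vitamin B metabolites, went from 3.21 ± 0.525 to 7.34 ± 1.85 CPM (1.23 ± 0.32, adjusted p = 0.0210, edgeR). *H2-M3*, which presents formylated peptides, was not called (0.42, adjusted p = 0.284). *H2-T24* was called under all 16 alternatives run. *H2-T23* lost its call without M0 replicates 1 or 3, without M1 replicates 2 or 3, and with the GC offset (adjusted p up to 0.105), and *Mr1* without M0 replicates 1 or 2 or M1 replicate 1 (up to 0.108).

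Of 10 genes of peptide trimming and loading, 1 rose in M1 (10%, below the 14.1% of all genes), the tapasin relative *Tapbpl*, from 7.48 ± 1.09 to 13.8 ± 1.90 CPM (0.90 ± 0.28, adjusted p = 0.0448, edgeR). It lost the call whenever 1 of the 6 libraries was left out, without a filter and with the block over all 15 libraries (adjusted p up to 0.177), but not with the block in the M0 and M1 libraries alone (0.0294). Of 19 other proteasome genes, 1 rose (5.26%), the ring subunit *Psma6*, from 315 ± 42.9 to 712 ± 83.3 CPM (1.18 ± 0.21, adjusted p = 0.00173, edgeR), called under all 16 alternatives. The constitutive catalytic subunits were not called, with 0.65 for *Psmb5* (adjusted p = 0.0616) and a mean of 1352 CPM in M0 and 1353 in M1 for *Psmb6*, nor were the activator subunits *Psme1* (-0.28, 0.199) and *Psme2* (0.18, 0.621).

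Regulators of class I genes moved in both directions. Of 19, 18 were tested in M1 against M0, and 3 rose and 2 fell (27.8%, beside 14.1% of all genes). *Stat2*, which acts in the response to type I interferon, rose by 1.05, the kinase *Jak2* by 1.63 and the feedback inhibitor *Socs1* by 3.97 on the log2 scale (adjusted p = 0.0406, 0.0418 and 0.0152, edgeR). *Irf1*, which acts on class I promoters, fell from 7.25 ± 1.04 to 4.22 ± 0.0533 CPM (-0.77 ± 0.21, adjusted p = 0.0290, edgeR). *Ifngr1*, a chain of the IFN-γ receptor, fell from 113.7 ± 12.4 to 55.7 ± 2.26 CPM (-1.03 ± 0.18, adjusted p = 0.00197, edgeR), called under all 16 alternatives. *Rfx5*, a partner of NLRC5 on DNA, was not called (0.13, adjusted p = 0.830, edgeR). *Ciita*, the class II relative of *Nlrc5*, had at most 3 counts in an M1 library and at most 19, in M2, in any library. It was not tested.

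Most of these calls rest on all 6 libraries being present. With 1 library left out, *Stat2* kept its call in 1 of 6 fits (without M1 replicate 1) and *Irf1* in 1 (without M0 replicate 1), and *Jak2* in 0, with adjusted p up to 0.173, 0.210 and 0.158. *Socs1* lost it without M0 replicate 1 or M1 replicate 3 (up to 0.0905). *Stat2* and *Irf1* also lost it without a filter (0.0591 and 0.210) and in the blocked fit of the M0 and M1 libraries (0.0724 and 0.0520), and *Stat2* with the block over all libraries (0.0549).

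Under IL-4, 2 of 61 listed genes outside the 10 were called against M0, both higher (3.28%, beside 4.13% of all genes). *Socs1* went from 0.451 ± 0.0766 CPM to 75.5 ± 63.1 CPM (log2 fold change 7.47 ± 0.95, adjusted p = 4.04e-04, edgeR), and *H2-M5*, a heavy chain at low level, from 0.357 ± 0.395 to 2.05 ± 0.262 CPM (2.48 ± 0.51, adjusted p = 0.0132, edgeR). *H2-M5* lost its call without M0 replicate 1 or M2 replicate 3, with the legacy quasi-likelihood and without the 4 libraries of lowest GC shift (adjusted p up to 0.142). All 15 heavy chains tested had a positive log2 fold change in M2, from 0.23 to 2.48 with a median of 0.89 beside 0.07 for all genes, and 1 was called. In CaP against M0 their median was 0.81, with a range from -0.03 to 1.08 beside a median of 0.06 for all genes, and 0 were called. Many of them share sequence, so they do not count as independent. In the microrod comparisons against M0, 0 of the 61 listed genes tested were called by edgeR in either group. At an unadjusted p below 0.05 there were 9 in CaP and 4 in SiO2 (18% and 9.27% of all genes). DESeq2 called 2 and 0, and its share over all genes is not given. The 9 in CaP included rises and falls. *H2-T23*, which was called in M1, was among them, at 30.1 ± 5.29 CPM (0.81 ± 0.22, adjusted p = 0.131, edgeR).

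**Figure D5:**
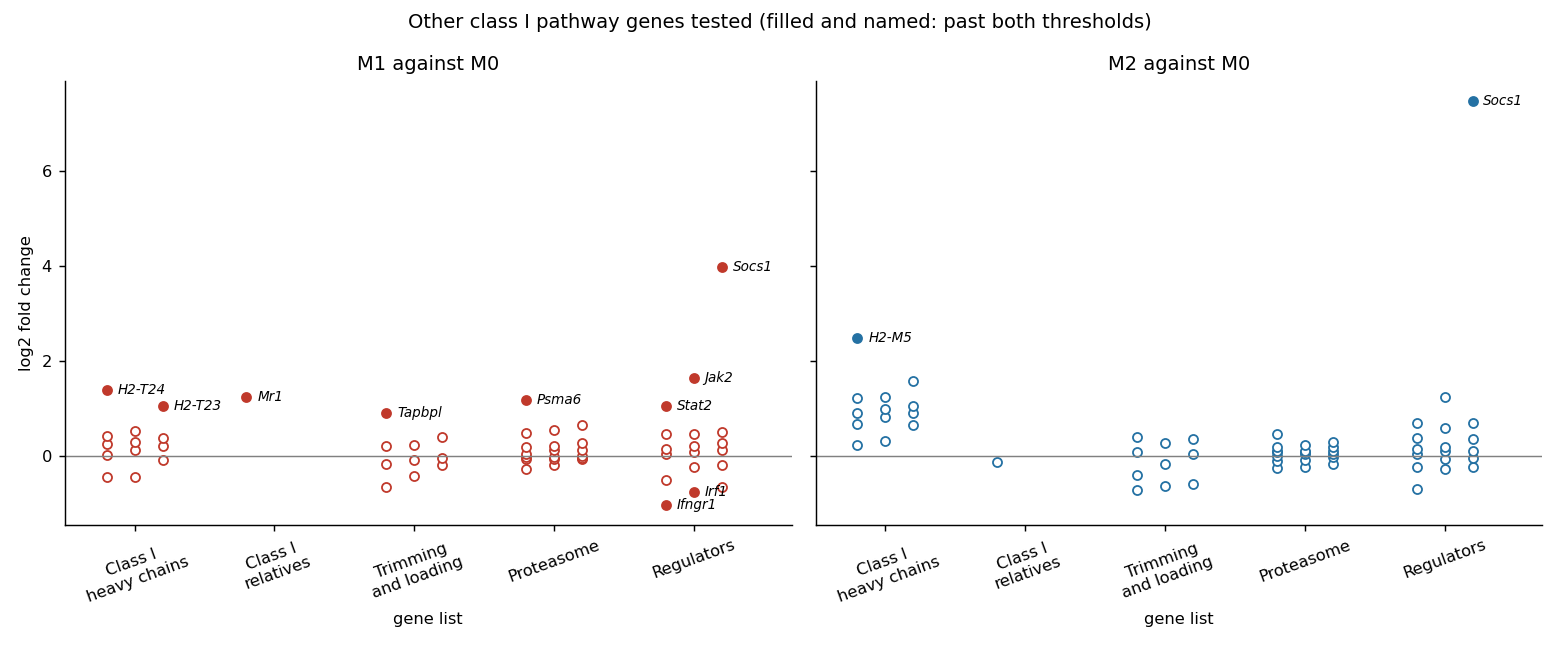
Log2 fold change (y axis) of the other class I pathway genes tested, by list (x axis), in M1 and M2 against M0. Each circle is a gene, and filled named circles passed both thresholds. *H2-T24*, *H2-T23*, *Mr1*, *Tapbpl* and *Psma6* are higher in M1, and *Socs1* and *H2-M5* are higher in M2.

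The genes outside the lists whose 4 log2 fold changes against M0 lay nearest to the median of the 10 were *Ddost*, *Avpi1*, *Hgh1*, *Gm16471* and *Nudt1*, at root-mean-square distances from 0.01 to 0.03 in the 15-library fit. The medians themselves were 0.13 in M1, 0.31 in M2, 0.17 in CaP and 0.17 in SiO2. A distance below 0.1 was shared by 218 of 10662 eligible genes, those with at least 5 CPM in a group. The median of the 10 averages members that differ in direction, so this likeness describes no single member.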

How the data were processed

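RNA of MH-S cells was prepared by Smart-seq2, whose amplified cDNA carries no molecular identifiers, so reads are not independent molecules. The authors processed the reads with nf-core/rnaseq (STAR and Salmon, Ensembl annotation, GRCm39 per the labels) and deposited 1 table of whole-number counts without normalization, and Salmon's estimates may have been rounded. All 15 sample columns were mapped by name and 0 were left unused. Symbols, transcript lengths and GC content came from GENCODE vM21, another release.

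Counts were filtered with filterByExpr by group, scaled with TMM and tested with edgeR 4.0.16 in R 4.3.3 (quasi-likelihood, Benjamini-Hochberg over all genes tested). Comparisons that involve M1 or M2 came from a fit of all 15 libraries (16654 genes), the others from a fit of the 9 M0, CaP and SiO2 libraries (16621 genes), the division of libraries used in the study. DESeq2 1.42.0 was an alternative, and the tests were tried on simulated counts. Shares of all genes called are those of edgeR, so counts from DESeq2 stand without a background. P-values measure the spread between wells of a single passage. Labels give the same replicate numbers in every group without saying what a number shares. Deviations from the group means correlated above 0.1 in all 3 same-numbered pairs of M0 with M1 (0.21 to 0.29) and of M2 with SiO2 (0.13 to 0.51) and in no other pair of groups throughout, so these 2 comparisons were also fitted on their own libraries with the number as a block. Replicates differed by more than sampling noise (chi-square per gene 7.55 to 152).

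The members and gene lists were chosen with earlier results of these data known. Named were all members, 10 set pathway genes (*Psmb5*, *Psmb6*, *Psmb7*, *Psme1*, *Psme2*, *Irf1*, *Rfx5*, *Ciita*, *H2-T23*, *H2-M3*), up to 3 called genes per list and direction with the largest change, and the 5 genes with the nearest pattern. Another listed gene is not reported here.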

Additional observations from a re-analysis of the deposited data

How the results depend on the processing

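Each result was recomputed with DESeq2, with DESeq2 size factors in edgeR, with no filter, with a minimum of 10 counts per library, with the replicate block, with all 15 libraries for the microrod comparisons and without each library. Further settings were chosen after the data were seen. These were the legacy quasi-likelihood, an offset for GC content and transcript length and, separately, leaving out the 4 libraries of lowest GC shift. For M1 against M0 and SiO2 against M2, fits on the libraries of the 2 groups alone, with and without the replicate block, were also chosen then. The summed heavy chains were recomputed with DESeq2, its size factors, no filter, the replicate block and without each library, and the ratios without each library.

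Of 195 recomputed main values 172 kept their side of the threshold or their count. The number of members called in M1 against M0 (0) became 1 without a filter and 1 with the replicate block on the M0 and M1 libraries only. These fits called 3394 and 2593 genes in all. It became 2 without the 4 libraries, which are those with the lowest mean deviation of *H2-D1*, *Tap1* and *Tap2*. Smaller p-values for these genes were therefore likely in advance. In M2 against M0 (1) it became 0 with the replicate block and with the legacy quasi-likelihood, and ranged from 0 to 1 without each library. In M1 against M2 (3) it became 1 with the GC and length offset and ranged from 1 to 3 without each library. In CaP against M1 (1) it became 0 with the offset and ranged from 0 to 1. In CaP against M2 (0) it became 2 with DESeq2 and 2 without the 4 libraries, and ranged from 0 to 1. In SiO2 against M2 (0) it became 1 without the 4 libraries, namely *Nlrc5*. The M1 difference in the *Psmb9* to *Psmb6* log2 ratio turned to 0.10 without M0 replicate 2, within a range from -0.34 to 0.10. The cause of these changes was not tested.

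Of 656 recomputed log2 fold changes of single members, 630 kept their call status, and 31 that were called neither way changed sign.

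For pairs of groups other than M0 with M1 and M2 with SiO2, what same-numbered wells share is likewise not known. Over all groups 14 of 30 pairs correlated above 0.1 (range -0.70 to 0.60), with the highest value between CaP replicate 2 and SiO2 replicate 2. With the replicate block *Nlrc5* in M2 against M0 was at -1.29 (adjusted p = 0.0771, edgeR), and the summed heavy chains in M1 at 0.53. The block on 2 groups alone changed no member's call in SiO2 against M2.

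Depth limits *Nlrc5*, *Tap1* and *Tap2* most, with 39 to 719 counts per library.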
